A study of Mus musculus with 8 samples.

Results

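Transcription factors that pattern cortical areas during development were examined here in the adult medial entorhinal cortex (MEC), to ask which of them differ between its dorsal and ventral parts. The 10 genes were chosen by name, as factors with a known part in laying out areas or fields of the developing cortex, and were matched by symbol to the 38553 genes of the deposited table. They comprise the orphan nuclear receptors *Nr2f1* and *Nr2f2*, the homeobox genes *Emx1*, *Emx2*, *Pax6*, *Lhx2* and *Meis2*, the zinc finger genes *Tshz2* and *Zbtb20*, and *Id2*, a helix-loop-helix regulator. Tissue came from 13 male C57BL/6JolaHsd mice at an age of 8 weeks, with no treatment or altered allele named in either region, and from 1 sagittal slice of the right hemisphere per mouse, 400 µm thick. It was pooled over 3 or 4 mice for each library, giving 4 dorsal and 4 ventral libraries, so p-values measure the variation among pools and not among single mice. The unit is FPKM, the fragments of a gene scaled by its exon length and by the mapped fragments of the library.

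The column headers of the deposited table, the letter D or V with a number, name another region than the authors' own comparison for 4 of the 8 libraries. The mean over D1, V1, D2 and V2 and the mean over D3, V3, D4 and V4 equalled the authors' 2 condition means within 0.1% for 14956 of 14970 genes compared, and the next best of the 70 possible splits did so for 287. The authors list these conditions as dorsal and ventral, and the first 4 columns are called dorsal and the last 4 ventral below. The assignment rests on values and not on headers. D1, D2, V3 and V4 are the libraries for which both give the same region, and the differences of the 10 factors over these alone are given too. Dorsal and ventral tissue came from the same 4 pools of mice, but the sources used here do not say which dorsal and ventral library share a pool. The fit therefore takes the 8 libraries as independent and ignores the pairing. Fragment totals were not used, so precision is given by the spread between libraries.

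Cortical areas arise from graded expression of transcription factors in the progenitors of the early cortical sheet, set up by signals such as FGFs, WNTs and BMPs from its margins. *Nr2f1* and *Emx2* are known to be high caudally and to favour caudal areas, while *Pax6* is high rostrolaterally and favours rostral ones, and *Nr2f2* marks caudal and ventral parts of the forebrain. The MEC lies at the caudal edge of the cortical sheet, next to the hippocampal formation, and its dorsoventral axis is the one along which the scale of grid cell firing changes. The tissue carried markers of cortex with glutamatergic neurons. The mean of *Slc17a7*, the vesicular glutamate transporter, was 107 FPKM dorsally and 105 ventrally. *Reln*, a marker of entorhinal layer II and also of some interneurons, was at 31.7 and 35.8 FPKM. The other listed layer II markers differed by the test given below. *Wfs1* was lower ventrally (76.6 and 52.5 FPKM), and *Calb1* (4.57 and 7.85) and *Cdh13* (21.6 and 36.7) were higher ventrally. In that order the adjusted p was 0.0133, 0.0306 and 0.0230 in limma. These calls were not followed with single libraries left out.

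Of the 10 factors, *Nr2f2* alone was differentially expressed between the regions. Its FPKM was 2.05-fold higher in ventral than in dorsal MEC, whereas its closest relative *Nr2f1* had a ventral to dorsal log2 ratio of −0.02. *Lhx2* lay above its dorsal range in every ventral library but did not pass the test, and the intervals of the other 8 factors were compatible with differences in either direction or, for *Zbtb20*, only just excluded 0. A gene counted as differentially expressed, V>D or D>V, at an adjusted p under 0.05 in limma, a linear model of log2(FPKM + 1) fitted to all 13674 genes tested, together with a difference of at least 20% in mean FPKM (log2(V/D) beyond 0.263). This held for 3.6% of all genes tested in either direction, made up of 1.45% V>D and 2.15% D>V, and for 1 of the 10 factors. Among 10 factors, 1 call is a result about *Nr2f2* and not about the group.

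**Figure D1:**
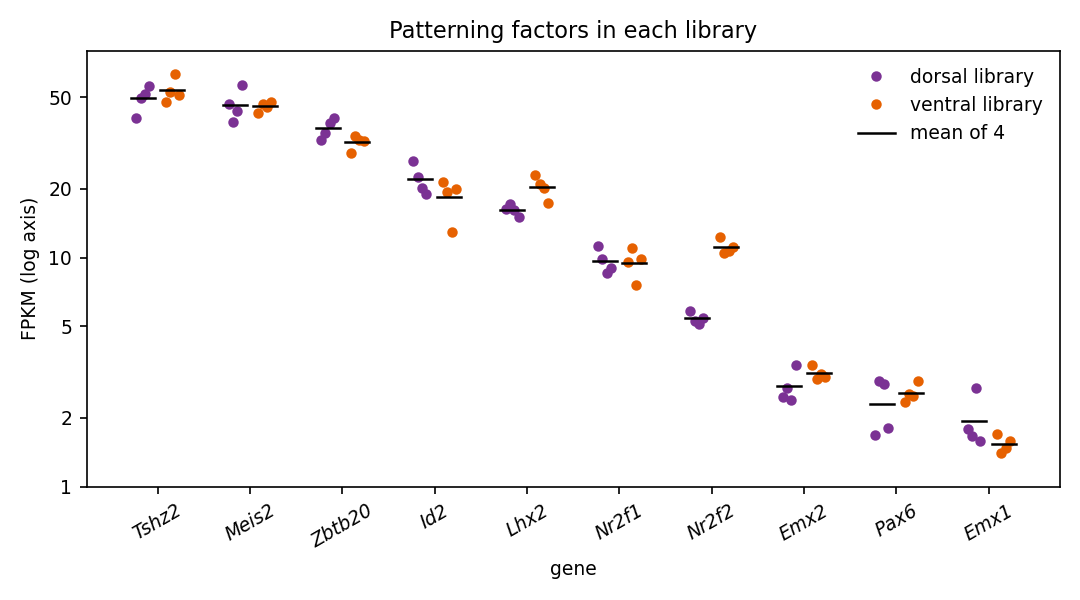
FPKM of the 10 factors in each library on a log axis, dorsal and ventral libraries side by side, with a black line at each mean of 4. The 4 ventral values of Nr2f2 (10.4 to 12.3) lie far above the 4 dorsal ones (5.12 to 5.83), those of Lhx2 lie just above, and the other 8 factors overlap between the regions.

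All 10 factors were transcribed in adult MEC above the mean FPKM of 1 set for testing. By mean FPKM over the 8 libraries, the order was *Tshz2* (51.7), *Meis2* (46.1), *Zbtb20* (34.3), *Id2* (20.2), *Lhx2* (18.3), *Nr2f1* (9.58), *Nr2f2* (8.29), *Emx2* (2.93), *Pax6* (2.42) and *Emx1* (1.74). The ranges over libraries overlapped between neighbours in this order, except between *Zbtb20* and *Id2*, between *Lhx2* and *Nr2f1*, and between *Nr2f2* and *Emx2*. Overlap over both regions together does not show equal levels at the other 6 steps. In the dorsal libraries *Nr2f1* (8.55 to 11.2 FPKM) lay wholly above *Nr2f2* (5.12 to 5.83). There *Id2* (19.0 to 26.4) also lay wholly above *Lhx2* (15.1 to 17.1). In the ventral libraries *Meis2* (42.7 to 47.9) lay wholly above *Zbtb20* (28.7 to 33.9). Ventral *Emx2* (2.96 to 3.39) lay wholly above *Pax6* (2.33 to 2.88), and *Pax6* above *Emx1* (1.40 to 1.70). *Tshz2* stood at the 92.0th percentile of the genes tested and *Emx1* at the 11.1th.

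The COUP-TF genes *Nr2f1* and *Nr2f2* encode paired orphan nuclear receptors that bind the same DNA elements and act mostly as repressors. *Nr2f2* (ENSMUSG00000030551) is a protein-coding gene on the minus strand of chromosome 7, from 70351944 to 70366735 in GRCm38, and *Nr2f1* (ENSMUSG00000069171) lies on the minus strand of chromosome 13, from 78188973 to 78199757. The windows around their annotated starts are printed to set the pair side by side, since *Nr2f2* differed between the regions and *Nr2f1* did not pass the test. Each runs 5′ to 3′ on the gene's strand from 250 bases before to 50 after a start in RefSeq (GRCm38.p6), at chr7:70366697-70366996 for *Nr2f2* and at chr13:78198824-78199123 and chr13:78196400-78196699 for the upstream and the downstream start of *Nr2f1*. Capitals mark matches on either strand to any of the motifs AGGTCA (a core bound by COUP-TF proteins), TAATTA (a homeodomain core), TGACAG (bound by MEIS proteins) and CANNTG (the E-box bound by the partners of Id2), which may overlap.
Nr2f2: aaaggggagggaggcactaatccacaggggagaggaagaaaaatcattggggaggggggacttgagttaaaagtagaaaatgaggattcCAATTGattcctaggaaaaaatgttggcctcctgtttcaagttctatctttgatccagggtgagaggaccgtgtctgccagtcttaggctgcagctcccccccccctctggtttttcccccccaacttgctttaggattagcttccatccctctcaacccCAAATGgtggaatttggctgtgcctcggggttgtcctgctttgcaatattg
Nr2f1, upstream start: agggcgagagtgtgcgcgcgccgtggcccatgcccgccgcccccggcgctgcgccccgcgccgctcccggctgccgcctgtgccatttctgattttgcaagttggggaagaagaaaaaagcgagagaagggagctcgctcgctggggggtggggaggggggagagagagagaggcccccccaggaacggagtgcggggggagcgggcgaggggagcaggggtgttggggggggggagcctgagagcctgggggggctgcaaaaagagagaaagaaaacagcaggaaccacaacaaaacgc
Nr2f1, downstream start: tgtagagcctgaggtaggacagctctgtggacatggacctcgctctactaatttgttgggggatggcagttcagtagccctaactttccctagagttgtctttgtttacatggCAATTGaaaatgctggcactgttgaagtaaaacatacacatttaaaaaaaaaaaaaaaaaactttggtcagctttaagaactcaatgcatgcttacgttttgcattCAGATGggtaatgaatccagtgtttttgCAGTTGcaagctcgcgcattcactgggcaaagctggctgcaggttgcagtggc

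The *Nr2f2* window held 2 E-boxes and the downstream *Nr2f1* window 3, while the upstream *Nr2f1* window had no match to any of the 4 motifs. The windows also differed in composition, with 49.7% G or C and 2 CpG dinucleotides for *Nr2f2* against 68.0% and 23 for the upstream start of *Nr2f1* and 43.0% and 4 for the downstream one. Over all 10 factors, 13 windows were listed, and the median was 58.7% G or C against 52.7% for the 32851 windows of all genes. An E-box was found in 7 of the 13 windows, where 72.3% of all windows hold one. TAATTA was found in 1, that of *Emx2* (5.29% of all windows), and TGACAG in 1, the downstream window of *Pax6* (19.2%). AGGTCA was found in 0 of the 13 (16.3% of all windows). A match is a string of letters and not a bound site.

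*Nr2f2* had an FPKM of 5.83, 5.31, 5.12 and 5.47 in the dorsal libraries D1, V1, D2 and V2. In the ventral libraries D3, V3, D4 and V4 it had 12.3, 10.4, 10.7 and 11.1. The lowest ventral value was thus well above the highest dorsal one, and the libraries of each region lay close together. The means were 5.43 ± 0.301 (SD, n = 4) dorsally and 11.1 ± 0.832 (SD, n = 4) ventrally. This is a log2(V/D) of 1.04. In the model the log2 fold change was 0.91 (standard error 0.073, 95% interval 0.75 to 1.08, adjusted p = 0.000275, limma). Ranked by log2(V/D), *Nr2f2* was number 62 from the top of the 13674 genes tested, at the 99.6th percentile. With any 1 of the 8 libraries left out it was still V>D, with an adjusted p between 0.000944 and 0.00277. Over D1, D2, V3 and V4 alone the log2 fold change was 0.86, with an adjusted p of 0.252 in a fit of 2 against 2 that called 0 of 13661 genes (1240 at an unadjusted p under 0.05). With the regions as the headers name them the difference was −0.053, and the libraries headed D then ran from 5.12 to 12.3 FPKM and those headed V from 5.31 to 11.1.

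For *Nr2f1* the FPKM was 11.2, 9.81, 8.55 and 9.01 in the dorsal libraries and 9.57, 11.0, 7.62 and 9.86 in the ventral ones. The ranges overlapped almost wholly. The means were 9.65 ± 1.18 (SD, n = 4) and 9.50 ± 1.39 (SD, n = 4), with a log2 fold change of −0.024 (standard error 0.11, 95% interval −0.27 to 0.23, adjusted p = 0.952). The interval of *Nr2f1* ends far below that of *Nr2f2*. Within a library, the ratio of *Nr2f2* to *Nr2f1* lay between 0.519 and 0.607 in dorsal MEC, where *Nr2f1* was the more abundant of the pair per length in all 4 libraries. In ventral MEC it lay between 0.952 and 1.41 and exceeded 1 in 3 of the 4 libraries. The ratio is a description with no test of its own.

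**Figure D2:**
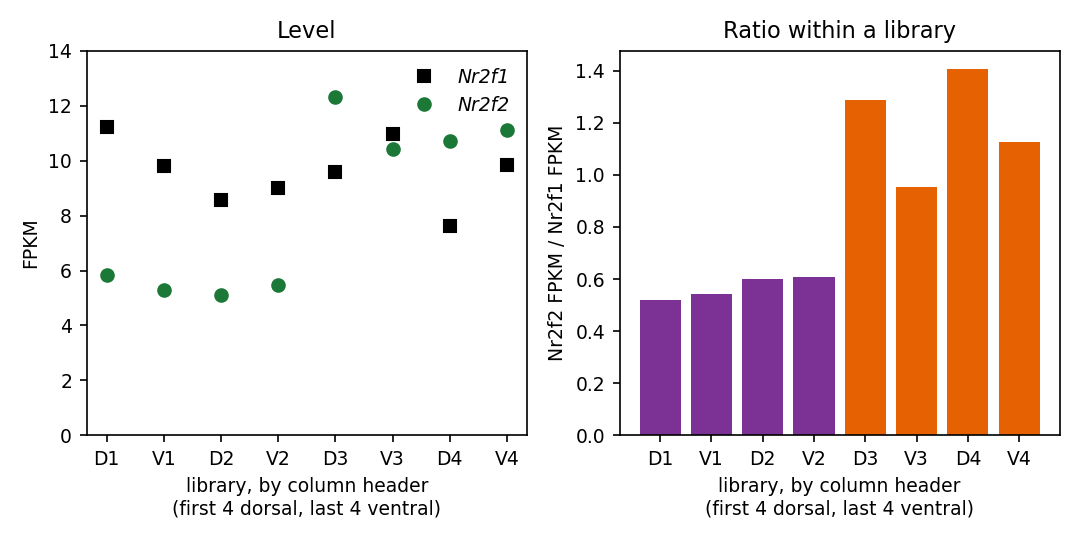
Left, FPKM of Nr2f1 (squares) and Nr2f2 (circles) in each library, named by its column header, the first 4 dorsal and the last 4 ventral. Right, the ratio of Nr2f2 to Nr2f1 FPKM in the same libraries, at most 0.607 dorsally and at least 0.952 ventrally.

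Both COUP-TF loci carry a transcript on the opposite strand. How counting treated strand is not given in the sources used here, so fragments over shared exons cannot be told apart. *B130024G19Rik* shares 643 of the 8625 exon bases of *Nr2f2* (7.46%) in GENCODE M21. It has no entry among the deposited genes, so its level was not available. Whether fragments of it were counted to *Nr2f2* was not tested. *A830082K12Rik*, antisense to *Nr2f1* from 78198017 to 78279391 and sharing 123 exon bases (2.42%), was far more abundant than its partner, at 37.0 ± 5.005 (SD, n = 4) FPKM dorsally and 36.8 ± 5.06 (SD, n = 4) ventrally. It too did not pass the test (log2(V/D) −0.0073, adjusted p = 0.984, limma).

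Genes that followed *Nr2f2* most closely were looked for among the 8709 genes with a mean FPKM of at least 5, by Pearson's correlation of log2(FPKM + 1) over the 8 libraries. The 3 highest were *Fxyd6*, of the FXYD family of ion transport regulators (r = 0.999), *Cadm1*, a synaptic cell adhesion molecule (r = 0.988), and *Gpr101*, an orphan G protein-coupled receptor (r = 0.987). Each was itself V>D, with a log2(V/D) of 0.75, 0.80 and 2.67, and was so with any 1 library left out. The 8 libraries fall into the 2 regions, so these values largely describe that split.

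Of the cell types in which *Nr2f2* is known to be expressed, interneurons from the caudal ganglionic eminence had 0 of 8 tested markers V>D. Over all genes tested 1.45% were V>D and 3.6% were called in either direction. Lists this small would hold few calls or none at that share, so a count of 0 is not a result about the cells. *Lamp5* was D>V (43.3 to 28.3 FPKM, log2(V/D) −0.61, adjusted p = 0.00139, limma), and *Vip* (4.75 and 5.24 FPKM) and *Adarb2* (5.64 and 5.79 FPKM) did not pass. *Htr3a* (1.37 and 1.82 FPKM, log2(V/D) 0.41) and *Prox1* (4.48 and 3.49, −0.36) lay on opposite sides without passing. The summed level of the 9 listed genes, 507 to 594 FPKM dorsally and 474 to 621 ventrally, was mostly that of *Cck* (454 and 460 FPKM) and says little about the rest. Of the 4 endothelial markers 0 were called, and their summed level was 19.1 to 22.0 dorsally and 13.5 to 19.3 ventrally. Of 4 leptomeningeal markers, 3 were tested and 1, *Dcn*, encoding the matrix proteoglycan decorin, was V>D (24.3 to 48.4 FPKM, log2(V/D) 0.99, adjusted p = 0.00246, limma). *Col1a2* (2.70 and 3.86 FPKM, adjusted p = 0.144) and *Slc6a13* (3.40 and 5.22, adjusted p = 0.0613) did not pass in limma. The summed level of the 4, most of it *Dcn*, was 28.0 to 37.0 FPKM dorsally and 54.2 to 67.4 ventrally, and 0 of them were at 0. Both genes listed for the adjoining subiculum, *Fn1* and *Nts*, were V>D, with a summed level of 9.24 to 13.4 dorsally and 18.4 to 24.7 ventrally. *Fn1* was at 10.8 FPKM dorsally and 16.6 ventrally (adjusted p = 0.0438, limma), and *Nts* at 0.770 and 4.14 (adjusted p = 0.000410, limma). The call of *Fn1* was thus near the threshold, and neither call was followed with single libraries left out. The paper also lists *Nts* for a narrow deep zone of the MEC itself. The dissection aimed to avoid subicular tissue, but how much of it the libraries hold was not tested. The part of any of these cells in the *Nr2f2* difference was not tested. In bulk tissue, more cells that express a gene and more RNA of it per cell cannot be told apart.

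*Lhx2* encodes a LIM homeodomain factor that selects cortical over hem and antihem fate in the early telencephalon. It lies on chromosome 2 from 38339281 to 38369733, with the antisense transcripts *Gm13584* and *Gm27197* inside the locus but sharing none of its exon bases. Its FPKM was 16.4, 17.1, 16.2 and 15.1 in dorsal MEC and 23.0, 20.9, 20.2 and 17.3 in ventral MEC. All ventral values exceeded all dorsal ones, the library headed V4 by a narrow margin. The means were 16.2 ± 0.825 (SD, n = 4) and 20.4 ± 2.38 (SD, n = 4), a ventral excess of 26.0%, with a log2 fold change of 0.31 (standard error 0.086, 95% interval 0.12 to 0.50). The unadjusted p was 0.00464 and the adjusted p 0.0861 in limma, so the gene was not called. Without V4 it was V>D, with a log2 fold change of 0.38 and an adjusted p of 0.0310, and without any other single library it was not called. Over D1, D2, V3 and V4 alone the log2 fold change was 0.21 (adjusted p = 0.658). Counting regions that did not overlap in FPKM gave 2 of the 10 factors, *Nr2f2* and *Lhx2*, both higher ventrally, where 11.1% of all genes tested met this, 4.95% higher ventrally and 6.17% higher dorsally.

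The *Emx* genes encode homeodomain factors of the cortical progenitors, and *Emx2* is the one with a known part in setting caudal area size. *Emx2* had an FPKM of 2.45, 2.70, 2.38 and 3.41 dorsally and 3.39, 2.96, 3.09 and 3.02 ventrally, so that 3 dorsal libraries lay below the ventral range and V2 above all of it. The log2 fold change was 0.15 (95% interval −0.08 to 0.37, adjusted p = 0.549). *Emx1* had 1.79, 1.66, 2.70 and 1.58 dorsally and 1.70, 1.40, 1.47 and 1.59 ventrally. The dorsal library D2 was well above the other 7. The log2(V/D) was −0.33 with it and −0.12 without it, and the log2 fold change over all libraries was −0.19 (95% interval −0.48 to 0.09, adjusted p = 0.524). Neither *Emx* gene passed the test. *Emx2* was above *Emx1* per length in every library but D2, with a ratio of 1.91 to 2.12 in the ventral libraries and 0.879 to 2.16 in the dorsal ones. *Emx2os*, the antisense partner that shares 264 exon bases of *Emx2* (8.79%), was at 0.763 ± 0.142 (SD, n = 4) dorsally and 0.983 ± 0.180 (SD, n = 4) ventrally, below the level for testing.

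*Pax6*, a paired-domain and homeodomain factor of radial glia that opposes *Emx2* in area patterning, had an FPKM of 1.68, 2.88, 2.81 and 1.8 in dorsal MEC. In ventral MEC it had 2.33, 2.53, 2.48 and 2.88. The dorsal libraries split into a pair below the ventral range and a pair at its upper end, and *Pax6* had the largest coefficient of variation of the factors, 28.1% dorsally. The log2 fold change was 0.13 (95% interval −0.18 to 0.44, adjusted p = 0.724). It was 0.037 without D1, 0.058 without V2, 0.21 without D2 and 0.22 without V1. The ratio of *Emx2* to *Pax6* within a library lay between 0.845 and 1.89 dorsally and between 1.05 and 1.46 ventrally, with no separation of the regions.

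*Meis2* and *Tshz2* were the most abundant factors. *Meis2*, a TALE homeodomain protein that works with other homeodomain proteins, had an FPKM of 46.9, 39.3, 43.6 and 56.6 dorsally and 42.7, 46.8, 45.4 and 47.9 ventrally. The ventral values lay inside the dorsal range, and the log2 fold change was −0.016 (95% interval −0.24 to 0.21, adjusted p = 0.967). *Tshz2*, a teashirt-family zinc finger protein, had 40.7, 49.9, 51.7 and 56.2 dorsally and 47.8, 52.8, 63.3 and 51.1 ventrally, with overlapping regions. Its log2 fold change was 0.11 (95% interval −0.13 to 0.36, adjusted p = 0.691), and 0.024 without D1 or 0.035 without D4. The opposite-strand lincRNA *Gm26883* covers 65.2% of the exon bases of *Tshz2* in the annotation, but the table gives it only 0.0539 FPKM dorsally and 0.00106 ventrally. *A630075F10Rik*, on that strand too, shares 175 bases and stood at 0.0424 and 0.0173 FPKM, and *AY702102* shares none. *Pax6os1* overlaps *Pax6* with no shared exon base.

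*Id2* and *Zbtb20*, like *Emx1*, had a lower ventral mean and did not pass the test. *Id2* lacks a DNA-binding domain and holds E proteins off DNA. Its FPKM was 26.4, 22.5, 20.03 and 19.0 dorsally and 21.3, 19.4, 12.9 and 19.9 ventrally. The regions overlapped, and D4 was the lowest library by far. The log2 fold change was −0.26 (standard error 0.15, the largest of the 10, 95% interval −0.60 to 0.08, adjusted p = 0.461). It was −0.11 without D4 and −0.17 without D1. *Zbtb20*, a BTB zinc finger repressor with a known part in specifying hippocampal fields, had 32.5, 34.9, 38.7 and 40.6 dorsally and 28.7, 33.9, 32.6 and 32.4 ventrally. Dorsal D1 fell inside the ventral range and the other 3 dorsal libraries above it. The log2 fold change was −0.19 (95% interval −0.38 to −0.01), with an unadjusted p of 0.0442 and an adjusted p of 0.295. At an unadjusted p under 0.05 there were thus 3 of the 10 factors, *Nr2f2*, *Lhx2* and *Zbtb20*, where 16% of all genes tested passed that level. A second entry with the symbol *Zbtb20* (ENSMUSG00000036279), which the authors marked as low data and which was not tested, had 2.60 ± 0.301 (SD, n = 4) and 2.47 ± 0.707 (SD, n = 4) FPKM. Inside the long *Zbtb20* locus, *Gm9968* and *Mir568* share 104 and 83 of its exon bases (0.338% and 0.270%), and *Gm19522*, *BC002163*, *Gm25873*, *Gm15712*, *Gm37946*, *Gm15711* and *Gm15713* share none.

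**Figure D3:**
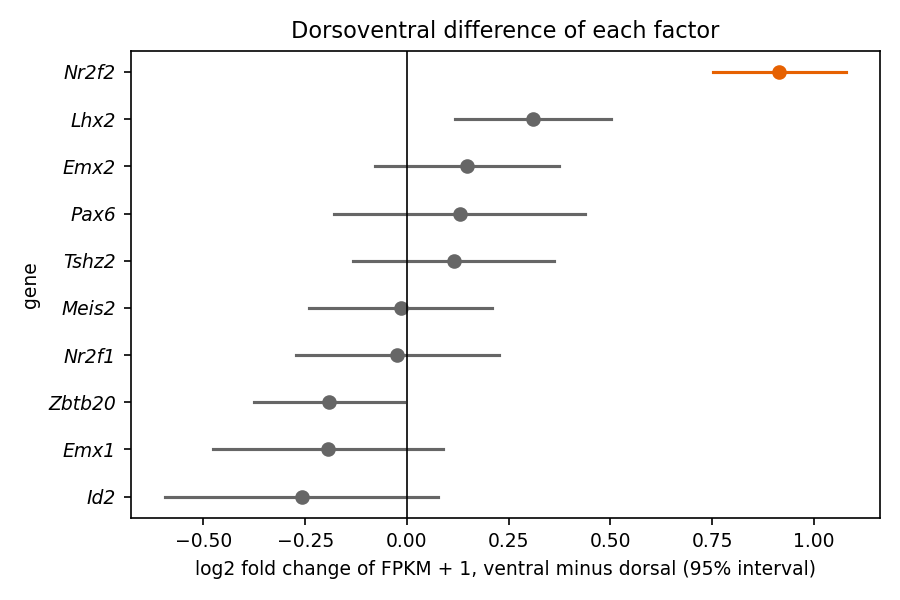
Log2 fold change of each factor, ventral minus dorsal, on the log2(FPKM + 1) scale with its 95% interval from limma. Nr2f2 (orange, V>D) lies at 0.91 (0.75 to 1.08), Lhx2 at 0.31 (0.12 to 0.50), and of the other 8 only the interval of Zbtb20 (−0.38 to −0.01) leaves out 0.

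Side by side, the factors divided evenly in direction, with log2(V/D) above 0 for 5 and below 0 for 5 and a median of 0.046, against −0.005 for all genes tested. *Nr2f1* and *Meis2*, both just below 0, had a log2 fold change just above 0 once libraries were rescaled to one total FPKM. Over D1, D2, V3 and V4 alone, the log2 fold change was 0.075 for *Nr2f1*, −0.37 for *Emx1*, 0.22 for *Emx2*, 0.21 for *Pax6*, 0.065 for *Meis2*, 0.18 for *Tshz2*, −0.22 for *Id2* and −0.093 for *Zbtb20*. Thus 8 of the 10 factors kept their direction in these libraries, *Nr2f1* and *Meis2* being the exceptions, and 0 were called. These libraries are part of the set that gave the directions, so the count is not an independent check. In the main fit the standard errors of the 10 factors, from 0.073 to 0.15, lay around the median of 0.099 over all genes. The middle 90% of genes tested had a log2(V/D) between −0.42 and 0.38, and 9 of the 10 factors fell inside it. For the factors that did not pass, the intervals leave room for differences of up to 0.60 on the log2(FPKM + 1) scale. That scale understates the differences of low genes such as *Emx1*. A missed threshold does not show equal levels.

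**Figure D4:**
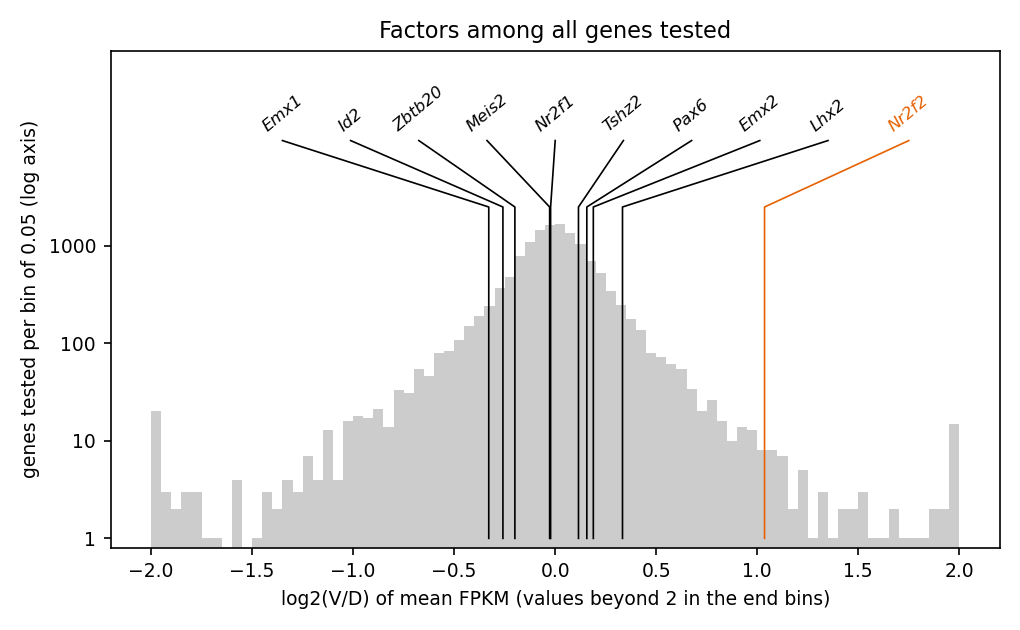
Histogram of log2(V/D) of mean FPKM over the 13674 genes tested (counts per bin on a log axis), with a line for each of the 10 factors. Nr2f2 (orange, 1.04) lies in the upper tail, and the other 9 lie between −0.33 (Emx1) and 0.33 (Lhx2).

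In each list of other patterning genes, 0 or 1 gene was called, where 3.6% of all genes tested were called in either direction. Lists this small would hold few calls or none at that share, so the counts are not a result about the lists. Of 22 other areal patterning transcription factors, 17 were tested and 0 were called, with a median log2(V/D) of 0.10. Among the most abundant were *Nfix* (107 and 116 FPKM, dorsal then ventral), *Lmo4* (101 and 95.6) and *Lmo3* (53.8 and 72.2). *Sp8*, *Dmrta1*, *Dmrta2*, *Dmrt3* and *Etv4*, known from the embryonic cortex, did not reach the level for testing. Of 24 known binding partners of the factors, 23 were tested and 0 called, among them *Tcf4*, an E protein held by Id2, at 192 and 187 FPKM. Of 21 family relatives, 12 were tested and 0 called, and *Zbtb18* was the most abundant (67.1 and 52.0 FPKM, log2(V/D) −0.37, adjusted p = 0.0539, limma), ahead of *Zbtb16* (11.9 and 10.8 FPKM), *Meis3* (9.80 and 9.62) and *Tshz3* (8.10 and 9.73).

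Among 18 patterning signals and receptors, 13 were tested and 1 was called, V>D, with a median log2(V/D) of 0.052 over the list. This was *Wnt5a*, a ligand of noncanonical WNT signaling, with 3.48 FPKM dorsally and 5.54 ventrally (log2(V/D) 0.67, adjusted p = 0.0286, limma). The call was lost without V1, D2, V2, D3 or V3 and held without each of the other 3 libraries, with an adjusted p from 0.0245 to 0.0851. The receptors *Fgfr2* (30.5 and 23.6 FPKM), *Bmpr1a* (17.9 and 17.0), *Fgfr1* (12.4 and 14.9) and *Fgfr3* (10.6 and 9.70) did not pass. *Fgf8* and *Fgf15*, ligands of the embryonic signaling centers, were listed at 0.

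Markers of some other cell types differed between the dissected regions, while the listed astrocyte and GABAergic markers did not pass the test. With 3.6% of all genes tested called, a count of 0 in a small list is not a result about its cells. All 6 oligodendrocyte markers were D>V, with a summed level of 808 to 1074 FPKM dorsally and 447 to 586 ventrally, and *Mobp*, a myelin gene, at 158 and 77.8. *Emx2*, *Pax6*, *Id2* and *Zbtb20* are known to be expressed in adult astrocytes too. Of 8 astrocyte markers 0 were called, with a median log2(V/D) of 0.066. Their summed level, 981 to 1055 and 947 to 1021, was mostly that of *Slc1a2* (682 and 635 FPKM, log2(V/D) −0.10). The highest log2(V/D) of the list were those of *Gfap* (18.3 and 22.1, 0.27), *Aqp4* (37.1 and 42.6, 0.20) and *Slc1a3* (70.7 and 79.0, 0.16). The rest of the list was *Gja1* (log2(V/D) 0.093), *Aldoc* (0.039), *Sox9* (0.037) and *Aldh1l1* (−0.020). The 4 GABAergic markers had 0 calls, with summed levels of 193 to 197 dorsally and 200.3 to 207 ventrally. Among markers of interneurons from the medial ganglionic eminence, *Pvalb* was D>V (15.7 and 6.63 FPKM) and *Sst* V>D (109 and 220.4). *Lhx6* (5.19 and 6.91) and *Sox6* (5.97 and 6.17) did not pass. The summed level of the 4 listed was 105 to 178 dorsally and 187 to 283 ventrally. It was mostly that of *Sst* and says little about the rest. The part of these differences in the values of the factors was not tested.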

How the data were processed

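RNA of dorsal and ventral MEC was sequenced after amplification from 120 ng, with RNA integrity numbers between 7.1 and 8.5. The authors processed reads with CASAVA 1.8, aligned fragments with TopHat2 2.0.8 to the Ensembl release 73 mouse genome (GRCm38) and obtained FPKM from Cuffdiff 2. The deposited FPKM are scaled between libraries by that program, and another scaling can move small differences. The authors' fold changes and p-values were not used, nor were 4 columns of per-sample values in a long table of fragments. Its rows carry a condition and a replicate number but match no single sample's labels. That table was not used, so no count model was run and depth is not given.

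Genes with enough alignments by the authors' status and a mean FPKM of at least 1 entered a linear model of log2(FPKM + 1), fitted with limma 3.58.1 (R 4.3.3), its empirical Bayes step following the mean-variance trend, with Benjamini-Hochberg adjustment over 13674 genes. Fold changes on that scale understate those of low genes. All tests were two-sided. The fit was tested on simulated data. Positions and overlaps are those of GENCODE M21, start windows those of RefSeq (GRCm38.p6), and 10 of the 10 factors had a window. Plots used matplotlib 3.10.9 in Python 3.11.15.

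The factors and lists were chosen with earlier results of these data known. Named are all factors, called genes of the lists with up to 4 of the most abundant others, transcripts overlapping a factor, and the 3 genes most like a called factor, except for an abundant list gene that is not reported here. Marker genes were named as examples of their list, some after their values were seen. Results for the choroid plexus, dentate gyrus, CA1, striatum, amygdala, mural cell, microglia and precursor markers stand in the closing section. Alternatives are named there too.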

Additional observations from a re-analysis of the deposited data

How the results depend on the processing

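*Nr2f2* was V>D under every alternative tried except 2, both on the regions of the libraries. These were the regions named by the column headers, and the 4 libraries on which header and assigned region are the same, where 0 factors were called. Between 1 and 2 factors were V>D when single libraries were left out, *Lhx2* being the second without V4, and 0 were D>V in any fit. Over all genes, leaving out a library gave 157 to 341 D>V genes in place of 294 (157 without V1, 163 without D3, 189 without V2) and 91 to 191 V>D genes in place of 198 (91 without V1 and without D3, 123 without D2, 121 without D4). Rescaling to one total FPKM gave 195 D>V genes and moved the median log2 fold change from −0.006 to 0.037. The headers' regions gave 1 D>V and 0 V>D genes, with 721 at an unadjusted p under 0.05, and the 4 libraries gave 0 and 0, with 1240. No other alternative moved these counts by over 1.5 times, among them constants of 0.1, a mean FPKM of at least 0.1 or 5, no variance trend, adjusted p alone, quantile normalization and sample quality weights. With a mean FPKM of at least 5, *Emx1*, *Emx2* and *Pax6* were not tested.

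Log2 fold changes that turned direction were near 0 or came with the headers' regions. *Nr2f1* was at 0.020 after rescaling, 0.075 in the 4 libraries, 0.045 without D1 and 0.067 without D4, over a range of −0.090 to 0.067 with 1 library left out. *Meis2* was at 0.033 after rescaling, 0.013 with quantile normalization, 0.013 with sample quality weights, 0.065 in the 4 libraries, 0.080 without V2 and 0.016 without D3, over a range of −0.092 to 0.080. Under the headers' regions *Nr2f1* was at 0.099, *Nr2f2* at −0.053 (log2(V/D) −0.074), *Lhx2* at −0.096, *Meis2* at 0.081, *Id2* at 0.043 and *Zbtb20* at 0.098. There *Wnt5a* was at −0.13, *Dcn* at −0.18, *Lamp5* at 0.059, *Pvalb* at 0.22, *Mobp* at 0.25, *Fxyd6* at −0.074, *Cadm1* at −0.095 and *Gpr101* at −0.29. In the 4 libraries *Wnt5a* (0.42), *Dcn* (0.79), *Lamp5* (−0.53), *Pvalb* (−0.91), *Sst* (1.24), *Mobp* (−0.77), *Fxyd6* (0.66), *Cadm1* (0.70) and *Gpr101* (1.77) kept their direction without a call. The 4 are part of the libraries of the main fit, so this is not an independent check. *Sst* lost its call without V1 (adjusted p = 0.0553, limma). The adjusted p of *Wnt5a* was 0.0504 after rescaling. The cause of these changes was not tested.

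No paired analysis was possible because the sources used here do not say which dorsal and ventral library share a pool of mice, although both regions came from the same pools. Depth was not used, and precision is limited by 4 libraries a region.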

Other observations

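Markers of other tissues and cells in the dissected regions are given here as values. Over all genes tested 3.6% were called, so a count of 0 in lists this small is not a result about them. Striatal markers had 0 calls among 2 tested (summed level 5.49 to 6.60 FPKM dorsally and 6.69 to 7.57 ventrally), amygdalar ones 0 among 2 (24.5 to 30.5 and 27.2 to 33.7), and dentate gyrus ones 0 among 1 (3.94 to 5.03 and 3.19 to 4.26). The CA1 list had 1 D>V and 1 V>D gene. The V>D gene was *Fibcd1*, at 0.641 FPKM dorsally and 2.52 ventrally (log2(V/D) 1.98, adjusted p = 0.00296, limma). The D>V gene was *Wfs1* (76.6 and 52.5 FPKM), which is listed for entorhinal layer II too. How much CA1 tissue the libraries hold was not tested. The choroid plexus list stayed between 0.862 and 1.40 FPKM in all libraries. Oligodendrocyte precursor (12.9 to 14.6 and 14.3 to 15.8), microglial (34.8 to 38.0 and 39.4 to 43.5) and mural cell markers (34.1 to 47.9 and 31.3 to 40.5) had 0 calls. Of the 4 entorhinal layer II markers 1 was D>V (*Wfs1*) and 2 were V>D (*Calb1* and *Cdh13*), and of the 4 glutamatergic markers 0 were called.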
